A study of Mus musculus with 24 samples.

Results

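The genes described here are the mitosis and spindle checkpoint genes: a list of 44 genes that encode mitotic cyclins and kinases, kinetochore, checkpoint and spindle proteins, and proteins of chromosome structure and cytokinesis. Members were taken from the list where the platform annotation gives a probe set with that symbol alone, with the probe set of highest mean over the 24 arrays standing for the gene. This gave 43 of the 44 listed genes, out of 19938 genes measured. Ccnb1, which encodes cyclin B1, had no probe set with its symbol alone and was not measured, and Sgol1 was matched under its current symbol, Sgo1. Top2a was the 1 member with more than 1 probe set.

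Expression was measured on 24 mouse arrays in 6 groups. Heterozygous leukaemias were tumour-bearing bone marrow of 7 mice carrying Sca1-BCR/ABLp190, a fusion oncogene expressed from the promoter of the stem and progenitor cell gene Sca1, together with Pax5+/-, the loss of 1 copy of the B cell transcription factor gene Pax5. Both-copy leukaemias were marrow of 2 Sca1-BCR/ABLp190 mice with no Pax5 deletion in their label. Heterozygous precursors and both-copy precursors were pro-B and pre-B cells of 3 preleukaemic mice of each of those genotypes. The references were marrow B cells labelled B220+, from 5 wild-type mice, and pro-B and pre-B cells of wild-type mice, for which the series text counts 3 mice and the labels give 4 arrays. All animals were kept in a conventional facility with exposure to common pathogens, and no treatment, strain or age is given in the labels. The leukaemia samples are labelled as bone marrow with no selected population, whereas every wild-type sample was a B cell population, and the titles call the replicates biological. Levels are log2 RMA values, a robust multi-array average of the probes of a gene, so a difference of 1 is a 2-fold change in hybridisation signal. The number of arrays, 2 to 7 in a group, and the spread between them limit the precision of each mean.

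In a dividing cell, cyclin-dependent kinase 1 with cyclins A and B drives entry into mitosis, and Polo-like and Aurora kinases direct spindle assembly. Kinetochores tie chromosomes to spindle microtubules, and the spindle checkpoint holds back the anaphase-promoting complex until every chromosome is attached. Most of these genes are transcribed in G2 and M phase under the MuvB complex with B-Myb and FoxM1 and are repressed in resting cells by the DREAM complex. Their transcripts are therefore commonly read as a measure of how many cells of a sample are cycling. In marrow, large pre-B cells divide rapidly, while small pre-B, immature and mature B cells are largely quiescent. In bulk samples, fewer dividing cells and less RNA per dividing cell cannot be told apart.

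The promoters of these genes are known for 2 short elements, the CCAAT box bound by NF-Y and the cell cycle genes homology region bound by MuvB complexes, whose usual core is TTTGAA, with TTTAAA as a known form of it. Windows of 8 genes are printed here to show how the members share these letters, and Bub1b and Cdc25b are among them as windows that hold a CCAAT box and neither core. Each window runs from 150 bases before to 30 after the RefSeq gene start on build GRCm38.p6, 180 bases, read 5′ to 3′ on the strand of the gene. Capitals mark CCAAT, which reads ATTGG where it lies on the other strand, and likewise TTTGAA as well as TTTAAA, which reads the same on both strands. The windows are Ccnb2 (cyclin B2) at chr9:70421525-70421704 (minus strand), Cdk1 at chr10:69352883-69353062 (minus), Plk1 at chr7:122159285-122159464 (plus), Cdc20 at chr4:118437314-118437493 (minus), Kif20b at chr19:34922208-34922387 (plus), Cenpa at chr5:30666736-30666915 (plus), Bub1b at chr2:118598061-118598240 (plus) and Cdc25b at chr2:131186798-131186977 (plus).
Ccnb2: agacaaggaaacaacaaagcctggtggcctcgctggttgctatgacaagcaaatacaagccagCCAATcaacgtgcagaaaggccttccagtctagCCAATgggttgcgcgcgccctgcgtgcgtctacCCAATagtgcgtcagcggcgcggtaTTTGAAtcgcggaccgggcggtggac
Cdk1: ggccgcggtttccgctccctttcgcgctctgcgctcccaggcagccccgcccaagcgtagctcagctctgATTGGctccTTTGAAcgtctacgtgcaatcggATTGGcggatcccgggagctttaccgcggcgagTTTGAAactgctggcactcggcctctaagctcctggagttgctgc
Plk1: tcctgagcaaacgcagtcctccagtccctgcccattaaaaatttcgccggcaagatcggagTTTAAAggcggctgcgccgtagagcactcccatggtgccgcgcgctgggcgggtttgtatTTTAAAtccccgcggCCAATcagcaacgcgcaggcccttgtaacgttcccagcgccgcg
Cdc20: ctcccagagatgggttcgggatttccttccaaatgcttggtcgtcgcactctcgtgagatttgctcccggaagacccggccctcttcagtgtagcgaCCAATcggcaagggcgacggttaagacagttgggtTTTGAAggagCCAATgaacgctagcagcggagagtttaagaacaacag
Kif20b: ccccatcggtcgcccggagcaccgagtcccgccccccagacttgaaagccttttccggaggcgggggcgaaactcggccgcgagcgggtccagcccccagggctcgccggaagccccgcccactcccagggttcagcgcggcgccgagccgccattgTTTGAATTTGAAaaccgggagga
Cenpa: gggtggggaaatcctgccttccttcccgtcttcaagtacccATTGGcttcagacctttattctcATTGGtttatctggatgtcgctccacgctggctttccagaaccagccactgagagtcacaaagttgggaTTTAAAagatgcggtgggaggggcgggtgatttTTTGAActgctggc
Bub1b: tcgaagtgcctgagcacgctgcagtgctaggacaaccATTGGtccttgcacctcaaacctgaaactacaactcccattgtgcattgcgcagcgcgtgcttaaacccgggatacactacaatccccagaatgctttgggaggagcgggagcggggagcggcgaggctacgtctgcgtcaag
Cdc25b: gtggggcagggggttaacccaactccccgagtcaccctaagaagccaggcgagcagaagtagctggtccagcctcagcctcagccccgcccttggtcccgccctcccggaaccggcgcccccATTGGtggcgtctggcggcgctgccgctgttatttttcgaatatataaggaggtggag

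The promoter table held 36 of the 44 listed genes, Ccnb1 among them. Searched on both strands, TTTGAA was in 22 of the 36 windows (61.1%), against 10.5% of the windows of all 27025 genes in the table. TTTAAA was in 6 of the 36 (16.7%, against 7.56% of all), and 27 held at least 1 of these 6-letter cores (75%, against 16.7%). CCAAT was in 25 of the 36 windows (69.4%, against 27.7%). CCAAT together with either core was in 21 (58.3%, against 4.67%). The Ccnb2 window holds 3 CCAAT matches and 1 TTTGAA, and the Cdk1 window 2 of each. In the Kif20b window 2 TTTGAA matches adjoin without overlapping, and no CCAAT was found. The Cdc25b window holds 1 CCAAT match and neither core within these 180 bases, and 8 other windows also hold neither core. Of those, Bub1, Bub1b and Sgol1 hold CCAAT, and Nuf2, Kif18a, Nusap1, Mad2l1 and Birc5 do not. All 8 of these genes were higher in heterozygous leukaemias than in B220+ cells, the comparison in which Cdc25b was lower. These are letter matches in a window and not measured binding sites, and their part in the levels was not tested.

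Averaged over the 43 members, the mitosis genes stood highest in wild-type precursors and both-copy leukaemias and lowest in wild-type B220+ cells. The mean member level of the 7 heterozygous leukaemias ran from 9.67 to 10.04 with a median of 9.78, and averaged 9.79 ± 0.13 (SD, n = 7). The 2 both-copy leukaemias had 10.69 and 9.94. Heterozygous precursors had 9.78, 9.59 and 8.29, and both-copy precursors had 9.69, 9.32 and 8.50. Wild-type B220+ cells had 9.03, 8.16, 8.39, 8.76 and 9.03, and wild-type precursors had 10.28, 10.35, 10.43 and 10.26. Every heterozygous leukaemia therefore lay above every B220+ sample and below every wild-type precursor sample. In both oncogene-bearing precursor groups arrays 1 and 2 stood between 9.32 and 9.78, and array 3 was within the range of the B220+ cells.

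**Figure D1:**
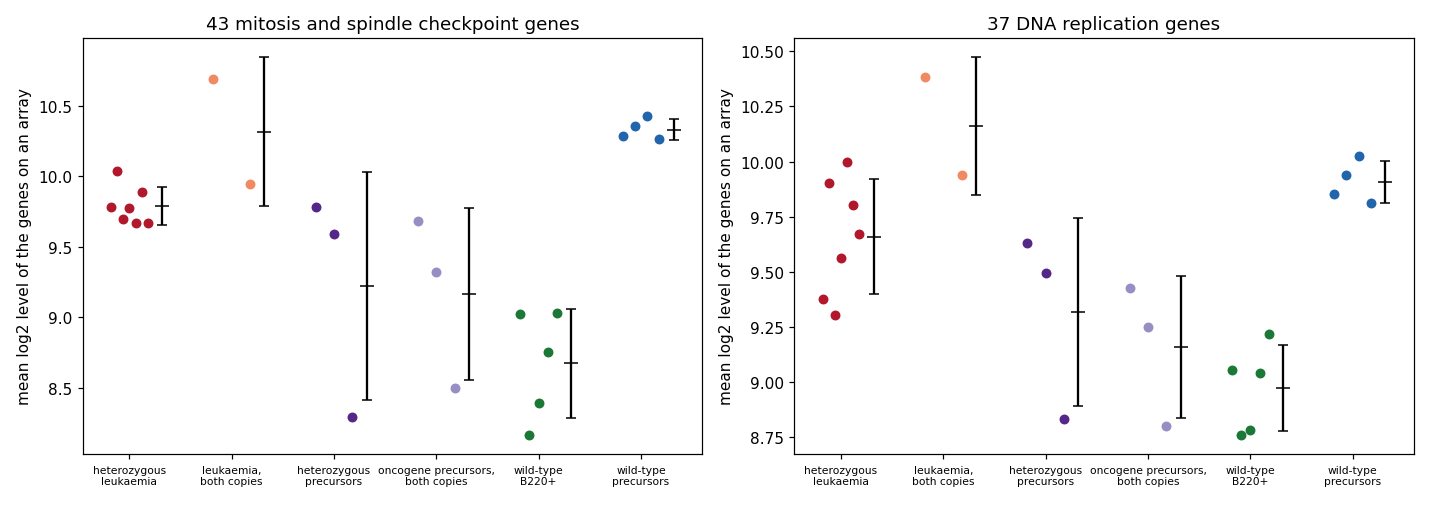
Mean log2 level of the 43 mitosis genes on each array (vertical axis), by group (horizontal axis), with 1 point per array and the group mean with its SD. Heterozygous leukaemias sit between 9.67 and 10.04, wild-type B220+ cells between 8.16 and 9.03 and wild-type precursors between 10.26 and 10.43, while both oncogene-bearing precursor groups span more than 1 log2 unit.

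The members moved together across arrays. The group with the highest mean was both-copy leukaemia for 22 members and wild-type precursors for the other 21, and the lowest was B220+ cells for 39, both-copy precursors for 3 and heterozygous leukaemia for 1. Array 3 of the heterozygous precursors was the lowest of its group for 43 of 43 members, and so was array 3 of the both-copy precursors. Array 1 of the both-copy leukaemias exceeded array 2 for 42 of 43, B220+ array 2 was the lowest of its group for 38 of 43, and heterozygous leukaemia array 2 was the highest of its group for 27 of 43. The SD of a member within a group had a median of 0.86 in heterozygous precursors and 0.57 in both-copy precursors, against 0.11 in wild-type precursors. Over all genes the corresponding medians were 0.11, 0.11 and 0.085. The members also spread more than the median gene in both-copy leukaemias (0.50, and 0.14 over all genes) and in B220+ cells (0.41, and 0.11 over all genes). In the 7 heterozygous leukaemias the members' median SD was 0.19 and that of all genes 0.17.

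**Figure D2:**
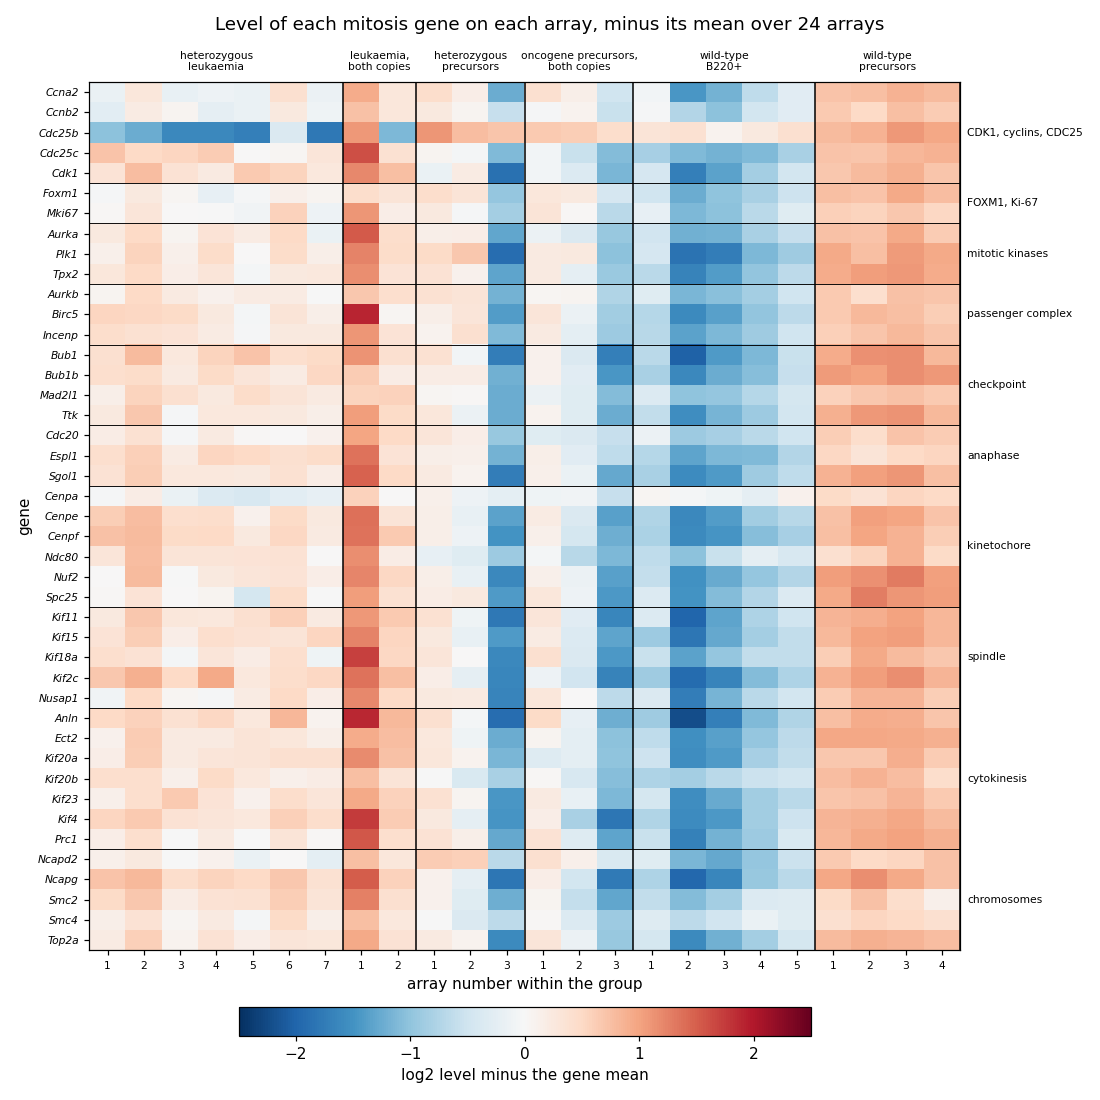
Level of each of the 43 members (rows, ordered by role) on each of the 24 arrays (columns, by group), coloured by the log2 difference from the gene's mean over all arrays. B220+ cells and array 3 of each oncogene-bearing precursor group are low for nearly every gene, wild-type precursors are high, and Cdc25b departs from the others in the heterozygous leukaemias.

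The labels were checked against Pax5 and cell type markers. Pax5 lay between 8.37 and 12.06 in heterozygous leukaemias (median 10.30) and at 8.10 and 8.39 in both-copy leukaemias, against 12.20 to 12.44 in B220+ cells. In precursors it lay between 11.58 and 12.004 in heterozygous and 11.93 and 12.19 in both-copy cells, against 11.81 to 12.02 in wild type. The deleted part of the gene and the position of the probes are not given, so this does not check the genotype. All 10 measured B lineage markers were lower in heterozygous leukaemias than in B220+ cells, and so they were in both-copy leukaemias, while 12 of 12 macrophage markers were higher in the heterozygous leukaemias. The mean of 8 erythroid markers was 11.96 and 7.80 in the both-copy leukaemias and reached 10.90 in heterozygous leukaemia array 6, against 7.57 to 7.88 in B220+ cells. The mean of 14 neutrophil markers was 12.07 and 11.42 in both-copy leukaemias, against 7.06 to 9.69 in B220+ cells. Between the 7 heterozygous leukaemias the erythroid mean ranged over 3.87 and the macrophage mean over 2.66 log2 units, while the mean of the mitosis genes ranged over 0.37. How far other marrow cells contribute to the mitosis levels was not tested.

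Wild-type B220+ cells had lower levels of nearly all mitosis genes than wild-type pro-B and pre-B cells. At an adjusted p under 0.05, 42 of 43 members were lower and 0 higher, whereas 8.84% of all genes passed in either direction and 4.26% in the lower one. The median member change was -1.72, against 0.0035 over all genes. For 43 of 43 members every B220+ array lay below every wild-type precursor array, which held for 11.3% of all genes. Cdc25b was the member that did not pass, at -0.63 ± 0.31 (SE, adjusted p = 0.258). Its levels did not overlap, at 10.42 to 10.74 in B220+ cells and 11.12 to 11.42 in wild-type precursors. The SE is from a fit of all arrays, so it also carries the spread of the leukaemias, with both-copy arrays at 11.41 and 9.21. The result for Cdc25b in a fit of the compared groups alone is not given here.

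Kif2c, a kinesin that takes apart microtubules at the centromere, had the widest difference, -2.24 ± 0.33 (SE, adjusted p = 0.000185). Its level was 7.81, 6.78, 7.04, 7.63 and 7.94 in B220+ cells, against 9.57, 9.74, 9.86 and 9.55 in wild-type precursors. The groups lay well apart, with B220+ array 2 the lowest. Bub1b, the checkpoint kinase-like protein BubR1, stood at 8.89, 8.10, 8.46, 8.63 and 9.12 in B220+ cells, against 10.77, 10.70, 10.88 and 10.78 in wild-type precursors (-2.14 ± 0.28, SE, adjusted p = 7.37e-05). On the linear scale the folds of B220+ cells over wild-type precursors were 0.212 for Kif2c and 0.227 for Bub1b. Among the other checkpoint members, Ttk, the kinase Mps1 that starts the checkpoint signal, was lower by a change of -1.92 ± 0.28 and Mad2l1, the Mad2 protein that inhibits Cdc20, by -1.35 ± 0.22 (SE, adjusted p = 0.000176 and 0.000456). Foxm1, which encodes a transcription factor of mitotic genes, was also lower (-1.61 ± 0.22, SE, adjusted p = 0.000104), as was Mki67, the Ki-67 proliferation antigen (-1.25 ± 0.25, SE, adjusted p = 0.00216).

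Both leukaemia groups had higher levels of the mitosis genes than B220+ cells. In heterozygous leukaemias 41 of 43 members were higher and 1 lower, against 31.8% of all genes called in either direction, 12.9% higher and 18.9% lower. The median member change was 1.20 (a fold of 2.29), while the median over all genes was -0.060. For 38 members every heterozygous leukaemia lay above every B220+ sample, and for 1 below, against 8.65% and 11.4% of all genes. In both-copy leukaemias 41 of 43 members were higher and 0 lower, with 21.4% of all genes called and 9.48% higher, and the median change was 1.82 (a fold of 3.53). Both comparisons use the same 5 B220+ arrays. Leaving out any 1 array left between 39 and 41 members higher in the heterozygous comparison and between 34 and 42 in the both-copy comparison. The lowest of these was without both-copy leukaemia array 1, which also had the high erythroid markers; 1 member, Cdc25b, was then lower.

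Among the cyclins and their regulators, 4 of 5 measured members were higher and 1 lower in heterozygous leukaemias, with a median change of 0.71. Cdk1, the kinase that drives mitotic entry, ran from 10.88 to 11.43 in heterozygous leukaemias with a median of 11.02, and was 11.87 and 11.41 in both-copy leukaemias. It was 10.24, 8.94, 9.33, 9.81 and 10.19 in B220+ cells, so neither leukaemia group overlapped them. The changes were 1.41 ± 0.21 and 1.94 ± 0.30 (SE, adjusted p = 0.000303 and 0.000749). Cdc25c, a phosphatase that activates Cdk1, had 7.36 to 8.06 with a median of 7.86 in heterozygous leukaemias and 8.96 and 7.72 in both-copy leukaemias, against 6.51, 6.25, 6.17, 6.24 and 6.54 in B220+ cells. Here too there was no overlap, and the change in heterozygous leukaemias was 1.40 ± 0.19 (SE, adjusted p = 0.000163). Ccnb2, the B-type cyclin that was measured, changed least of the members that rose: it ran from 11.33 to 11.83 with a median of 11.48 in heterozygous leukaemias and overlapped B220+ cells at 11.56, 10.86, 10.57, 11.14 and 11.30 (0.47 ± 0.16, SE, adjusted p = 0.0413).

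The mitotic kinase group, Plk1, Aurka and the Aurora A activator Tpx2, rose in 3 of 3 members. Plk1, the Polo-like kinase of centrosomes and kinetochores, ran from 10.30 to 10.85 with a median of 10.45 in heterozygous leukaemias and was 11.53 and 10.76 in both-copy leukaemias, against 9.87, 8.45, 8.56, 9.17 and 9.41 in B220+ cells. Its changes were 1.47 ± 0.23 and 2.05 ± 0.33 (SE, adjusted p = 0.000444 and 0.000951). Tpx2, which binds Aurora A to spindle microtubules, had a change of 1.32 ± 0.19 in heterozygous leukaemias (SE, adjusted p = 0.000219). The chromosomal passenger members Aurkb, Incenp and Birc5, which correct faulty attachments and direct cytokinesis, also rose in 3 of 3. Incenp, with the smallest adjusted p of these, changed by 1.17 ± 0.16, and Birc5, with the widest change, by 1.38 ± 0.27 (SE, adjusted p = 0.000131 and 0.00196). Foxm1 and Mki67 rose as well, by 0.85 ± 0.13 and 0.77 ± 0.20 (SE, adjusted p = 0.000268 and 0.0117).

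The 4 checkpoint members were higher in heterozygous leukaemias with a median change of 1.32. Bub1b ran from 9.91 to 10.23 with a median of 10.13 in heterozygous leukaemias and was 10.34 and 9.89 in both-copy leukaemias. All these values lay above the 8.10 to 9.12 of the 5 B220+ arrays. The changes were 1.44 ± 0.15 and 1.47 ± 0.21 (SE, adjusted p = 2.04e-05 and 0.000479). All 3 anaphase members rose in heterozygous leukaemias. Espl1, the separase that cleaves cohesin, ran from 8.67 to 9.06 with a median of 8.93 and was 9.82 and 8.79 in both-copy leukaemias, against 7.74, 7.15, 7.33, 7.35 and 7.72 in B220+ cells. The change in heterozygous leukaemias was 1.45 ± 0.16 (SE, adjusted p = 2.8e-05), and the arrays did not overlap. Sgol1, the shugoshin that protects centromeric cohesion, changed by 1.40 ± 0.19, and Cdc20, the activator of the anaphase-promoting complex, by 0.75 ± 0.13 (SE, adjusted p = 0.000131 and 0.000906).

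Of 6 kinetochore members 5 were higher in each leukaemia group, and the exception was Cenpa, the centromeric histone H3 variant. Cenpf, a large protein of the outer kinetochore, ran from 9.08 to 9.66 with a median of 9.36 in heterozygous leukaemias and was 10.23 and 9.52 in both-copy leukaemias. Its 5 B220+ values were 8.06, 7.27, 7.39, 7.80 and 8.03, so no leukaemia array reached down to them. The changes were 1.65 ± 0.17 and 2.17 ± 0.25 (SE, adjusted p = 2.08e-05 and 9.69e-05). All 5 spindle motor and microtubule members rose. Kif2c ran from 8.97 to 9.66 with a median of 9.23 in heterozygous leukaemias and was 10.07 and 9.45 in both-copy leukaemias, against 6.78 to 7.94 in B220+ cells (changes of 1.87 ± 0.21 and 2.32 ± 0.30, SE, adjusted p = 3.14e-05 and 0.000198). This was the widest change of any member in the heterozygous comparison, a fold of 3.67. In the both-copy comparison Anln, the anillin of the cleavage furrow, had the widest, a fold of 6.43.

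All 7 cytokinesis members and all 5 chromosome structure members were higher in each leukaemia group. Kif20b, a kinesin of the central spindle, ran from 8.44 to 8.78 with a median of 8.57 in heterozygous leukaemias and was 9.06 and 8.63 in both-copy leukaemias, against 7.54, 7.45, 7.64, 7.76 and 7.84 in B220+ cells. It had the smallest adjusted p of the members in the heterozygous comparison (0.95 ± 0.10, SE, adjusted p = 1.75e-05), with a modest fold of 1.93. Ect2, the exchange factor that activates RhoA for furrowing, changed by 1.30 ± 0.15 (SE, adjusted p = 5.12e-05). Ncapg, a condensin I subunit, changed by 1.79 ± 0.23 (SE, adjusted p = 8.6e-05). Top2a, the topoisomerase that untangles sister chromatids, ran from 11.18 to 11.69 with a median of 11.38 in heterozygous leukaemias and was 12.04 and 11.46 in both-copy leukaemias, against 10.66, 9.51, 9.90, 10.26 and 10.66 in B220+ cells. Its change in heterozygous leukaemias was 1.19 ± 0.19 (SE, adjusted p = 0.00049).

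**Figure D3:**
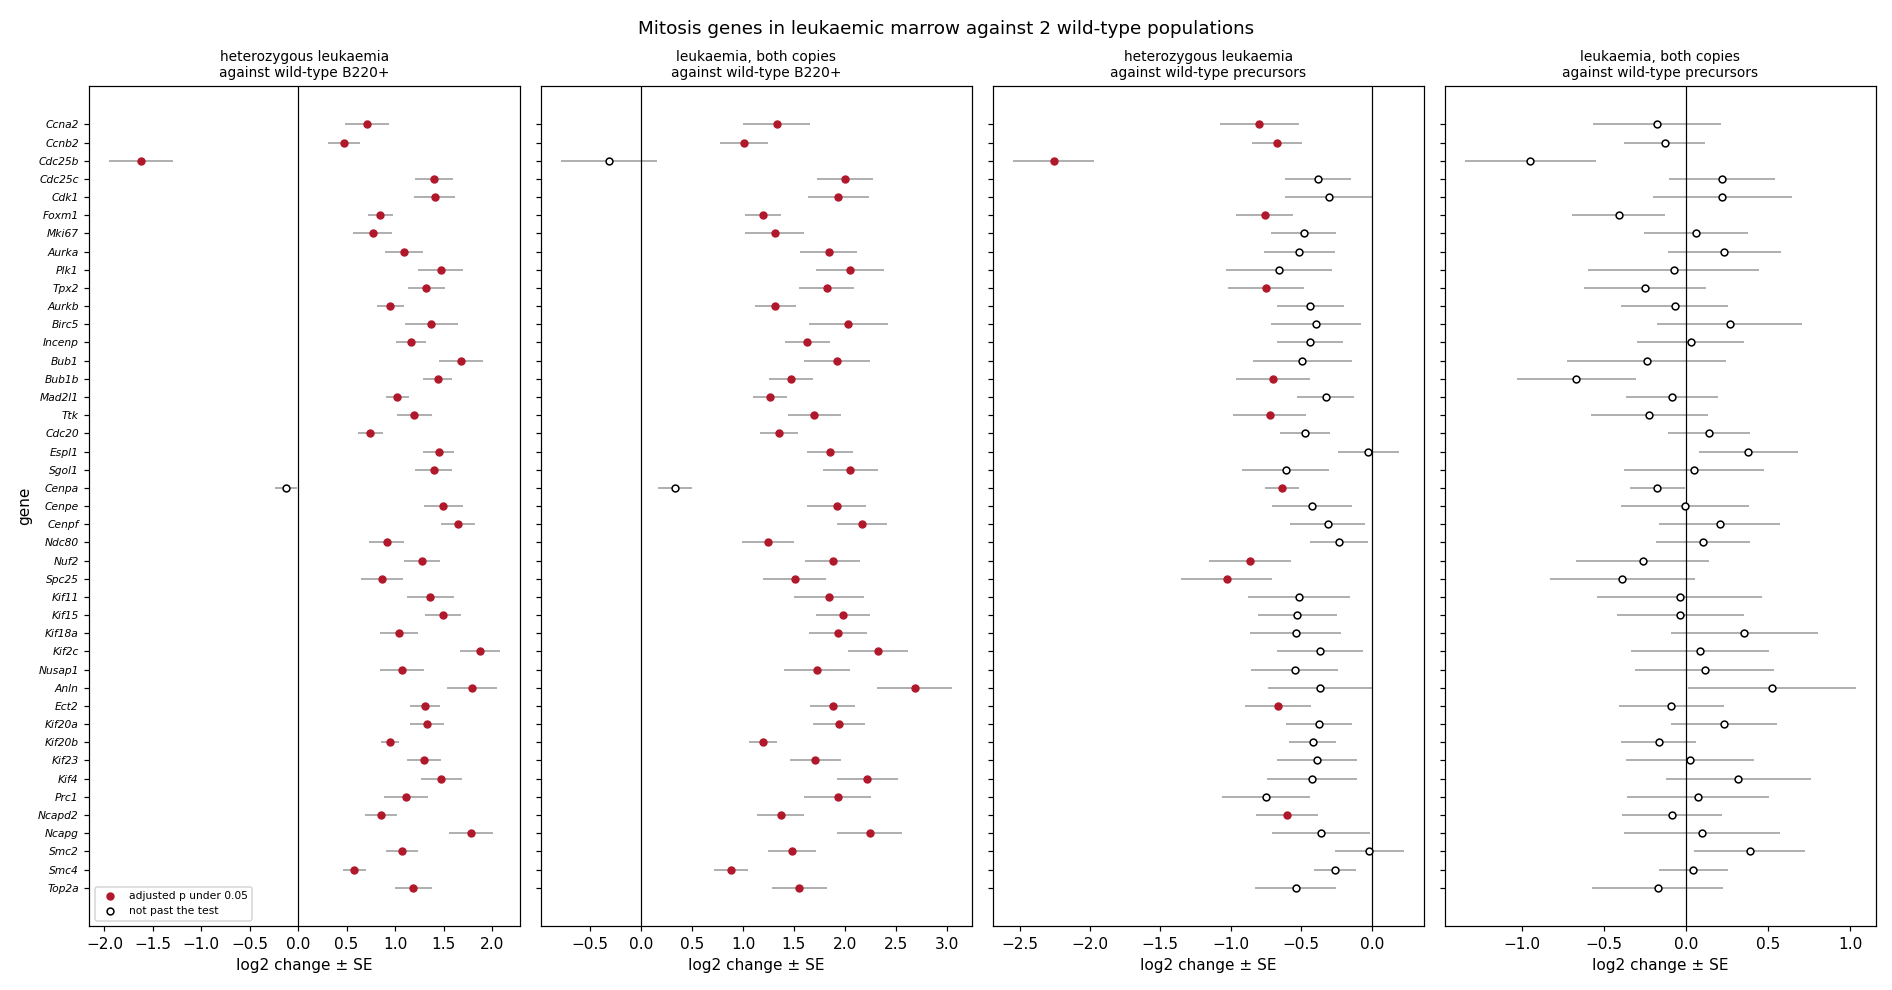
Log2 change of each member with its SE, by role, for heterozygous and both-copy leukaemias against B220+ cells and against wild-type precursors. Against B220+ cells the points lie right of 0 except Cdc25b and, in heterozygous leukaemias, Cenpa; against wild-type precursors the heterozygous leukaemias lie at or left of 0, and the both-copy leukaemias around 0.

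Set against wild-type precursors in place of B220+ cells, neither leukaemia group had a member that passed as higher. In heterozygous leukaemias 0 of 43 members were higher and 12 lower, with a median change of -0.49, while 32.2% of all genes passed in either direction and 19.6% in the lower one. The 12 were Ccna2, Ccnb2, Cdc25b, Foxm1, Tpx2, Bub1b, Ttk, Cenpa, Nuf2, Spc25, Ect2 and Ncapd2. For 28 members all heterozygous leukaemias lay below all wild-type precursors, which held for 13.7% of all genes. Foxm1 ran from 9.22 to 9.68 with a median of 9.47 in heterozygous leukaemias, against 10.18, 10.14, 10.36 and 10.19 in wild-type precursors (-0.76 ± 0.21, SE, adjusted p = 0.00802). Cdk1 differed less, with 10.88 to 11.43 in heterozygous leukaemias against 11.33, 11.45, 11.54 and 11.35 in wild-type precursors (-0.31 ± 0.31, SE, adjusted p = 0.469). Smc2, a condensin subunit, and Espl1 stood nearest to the wild-type precursors, at -0.016 ± 0.25 and -0.024 ± 0.22 (SE, adjusted p = 0.967 and 0.948). Those 2 were singled out after their values were seen. The count of 12 depended on the fit: a fit of those 2 groups alone gave 35, cyclic loess scaling gave 5, and leaving out 1 array gave 4 to 12, with 4 without wild-type precursor array 2 and 5 without heterozygous leukaemia array 1 or wild-type precursor array 1 or 3. Counts of 6 to 8 remained without heterozygous leukaemia array 3, 4, 5 or 7 or wild-type precursor array 4. The shares of all genes in these fits are not given here.

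Between both-copy leukaemias and wild-type precursors limma called 0 of 43 members (21.4% of all genes passed), and 1 member, Cdc25b, had an unadjusted p under 0.05. The median change was 0.021. It was -0.37 without both-copy leukaemia array 1 and 0.31 without array 2, so its sign rests on which of the 2 arrays is used. With array 1 left out, 1 member, Cdc25b, passed as lower.

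The 2 both-copy leukaemias differed from each other in these genes. Array 1 exceeded array 2 by a median of 0.70 over the 43 members, from -0.022 for Mad2l1 to 2.20 for Cdc25b. Array 1 was also the one with the high erythroid marker mean (11.96, against 7.80 on array 2), and whether the erythroid cells carry the extra mitotic signal was not tested. The heterozygous leukaemia with the next highest erythroid mean, array 6 at 10.90, had a mean mitosis level of 9.89, the highest of its group after the 10.04 of array 2, whose erythroid mean was 9.39.

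Heterozygous and both-copy leukaemias, whose labels differ by 1 Pax5 copy, were compared directly. Their marrow also differed in neutrophil markers. In heterozygous over both-copy leukaemias Prtn3 changed by -3.98 ± 0.44 and Mpo by -4.13 ± 0.81 (SE, adjusted p = 4e-04 and 0.0205). S100a8, at -3.11 ± 1.15, did not pass (SE, adjusted p = 0.219). Pax5 copy and the mix of marrow cells cannot be told apart here. Of the 43 members 0 passed limma's test in either direction (1.87% of all genes passed). Before adjustment 18 had a limma p under 0.05, and the share of all genes at that limit was not computed. The median change of heterozygous over both-copy leukaemias was -0.51. Every member's change was below 0, down to -1.31 ± 0.45 for Cdc25b (SE, adjusted p = 0.188), and quantile scaling turned 1 member to just above 0. Cdc20 had the smallest adjusted p: it ran from 9.01 to 9.41 with a median of 9.14 in heterozygous leukaemias, against 10.01 and 9.53 in both-copy leukaemias (-0.61 ± 0.18, SE, adjusted p = 0.117). For 8 members every heterozygous leukaemia lay below both both-copy leukaemias (4.29% of all genes). The difference rested on both-copy array 1: the median was -0.20 without it and -0.84 without array 2, and in that last case 13 members were lower, with 1 array standing for the both-copy group and assumed to vary like the others. A fit of all 24 arrays called 1 member, Cdc25b, lower.

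In preleukaemic pro-B and pre-B cells most mitosis genes passed as lower than in wild-type cells in the both-copy genotype, and few did in the heterozygous one, with wide spread between mice in both. In both-copy precursors 25 of 43 members were lower and 0 higher, against 27.1% of all genes called and 15.5% lower, and the median change was -1.20. In heterozygous precursors 3 were lower and 0 higher, against 4.17% called and 2.94% lower, and the median change was -1.13. Both comparisons share the 4 wild-type arrays. All both-copy precursors lay below all wild-type precursors for 43 of 43 members (22.9% of all genes), and all heterozygous precursors did so for 41 (12% of all genes).

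The 3 members that passed in heterozygous precursors were Kif20b, Cenpa and Ndc80. Kif20b was 8.30, 7.93 and 7.50 in heterozygous precursors and 8.33, 7.90 and 7.23 in both-copy precursors, against 9.07, 9.17, 9.07 and 8.74 in wild-type precursors. The changes were -1.11 ± 0.25 and -1.19 ± 0.25 (SE, adjusted p = 0.0445 and 0.0113). Cenpa was 10.59, 10.34 and 10.22 in heterozygous precursors and 10.35, 10.38 and 9.89 in both-copy precursors, against 10.93, 10.84, 10.996 and 10.96 in wild-type precursors (-0.55 ± 0.13 and -0.72 ± 0.13, SE, adjusted p = 0.0451 and 0.00618). Ndc80, the outer kinetochore protein that grips microtubules, was 8.11, 7.99 and 7.40 in heterozygous precursors and 8.26, 7.60 and 7.18 in both-copy precursors, against 8.71, 8.86, 9.17 and 8.79 in wild-type precursors (-1.05 ± 0.25 and -1.20 ± 0.25, SE, adjusted p = 0.0489 and 0.0105). In all 3 genes the groups did not overlap, and array 3 was the lowest of each oncogene-bearing group.

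By role, both-copy precursors were lower in 6 of 6 kinetochore, 4 of 4 checkpoint, 5 of 7 cytokinesis, 3 of 5 cyclin and regulator, 2 of 3 mitotic kinase, 2 of 5 spindle motor, 2 of 5 chromosome structure, 1 of 3 anaphase and 0 of 3 passenger members. Of Foxm1 and Mki67, 0 of 2 passed as lower. The changes overlapped between roles: the 3 passenger members lay between -1.004 and -0.83 and the 6 kinetochore members between -1.59 and -0.72. The difference between roles was not tested. Kif2c, with the widest change, was 8.58, 8.23 and 7.04 in both-copy precursors and 8.86, 8.49 and 7.08 in heterozygous precursors, against 9.55 to 9.86 in wild-type precursors (-1.73 ± 0.44 and -1.53 ± 0.44, SE, adjusted p = 0.0202 and 0.08). Plk1 was 10.51, 10.54 and 9.28 in both-copy precursors and 10.76, 10.97 and 8.40 in heterozygous precursors, against 11.24, 11.04, 11.36 and 11.25 in wild-type precursors. Arrays 1 and 2 were within 1 log2 unit of wild type and array 3 was far lower, and neither comparison passed (-1.11 ± 0.56 and -1.18 ± 0.56, SE, adjusted p = 0.155 and 0.241). Cdk1 was 10.59, 10.32 and 9.51 in both-copy precursors and 10.50, 10.86 and 8.79 in heterozygous precursors, below the 11.33 to 11.54 of wild type, and did not pass (adjusted p = 0.0541 and 0.103).

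**Figure D4:**
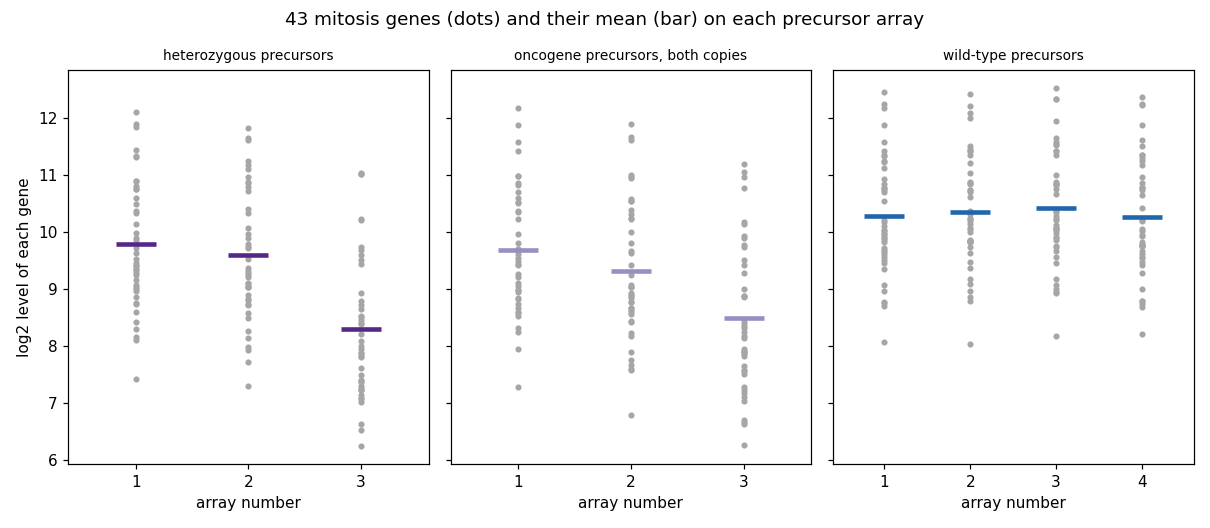
Log2 level of members on each pro-B and pre-B array, with heterozygous and both-copy precursors left of wild-type precursors and points named by array number. In each oncogene-bearing group array 3 is the lowest, and wild-type arrays lie close together.

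Single arrays set these counts. Without array 3 of the both-copy precursors the median change was -0.89 and 5 members were lower, and without array 1 it was -1.45 with 34 lower. It was 12 without both-copy array 2, and 13, 9 and 5 without wild-type arrays 1, 2 and 3. Without array 3 of the heterozygous precursors the median change was -0.65 and 0 members were lower, and the count was 2 without array 1 and 0 without array 2 or any single wild-type array. With arrays weighted by their fit, 38 members were lower in both-copy precursors and 24 in heterozygous precursors. The shares of all genes in these refits are not given here, so the counts do not compare the members with other genes. The mean of 14 neutrophil markers was 10.45 in both-copy precursor array 1, against 7.24 to 9.13 in wild-type precursors, and T and natural killer cell markers were lower in 5 of 10 in both-copy precursors and 3 of 10 in heterozygous precursors. Their part in the result was not tested.

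Heterozygous precursors did not pass against both-copy precursors in any member (0.0251% of all genes passed; 1 member, Cdc25b, had an unadjusted p under 0.05). The median change was 0.054, and it was -0.023 under quantile scaling and -0.068 under cyclic loess. Cdc25b was 11.43, 11.10 and 11.04 in heterozygous precursors, against 10.98, 10.95 and 10.77 in both-copy precursors (0.29 ± 0.12, SE, adjusted p = 0.315). Same-numbered arrays of these groups deviated together from their group means, but no label pairs them. Paired by number, the median difference over members was 0.072, 0.26 and -0.17 for numbers 1, 2 and 3, with 28, 38 and 13 of 43 members higher in the heterozygous array. With the number as a block, 0 members passed.

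Against precursors of their own genotype, most mitosis genes passed as higher in both-copy leukaemias and a minority in heterozygous leukaemias, and single arrays moved both counts. In heterozygous leukaemias 17 of 43 members were higher and 1 lower than in heterozygous precursors, with 44.7% of all genes called (16.4% higher and 28.4% lower) and a median change of 0.65. In both-copy leukaemias 33 were higher and 0 lower than in both-copy precursors, with 45.7% called (18.1% higher) and a median change of 1.21. Kif20b ran from 8.44 to 8.78 in heterozygous leukaemias, against 8.30, 7.93 and 7.50 in heterozygous precursors, with no overlap (0.69 ± 0.18, SE, adjusted p = 0.00518). The member that was lower in the heterozygous comparison was Cdc25b (-2.19 ± 0.32, SE, adjusted p = 3.01e-05). Without heterozygous precursor array 3, 0 members were higher, 2 (Cdc25b and Ncapd2) were lower and the median change was 0.17, and without heterozygous precursor array 1 there were 27 higher. In the both-copy comparison 6 were higher and 1, Cdc25b, was lower without both-copy leukaemia array 1, and 14 were higher without both-copy precursor array 3. Leukaemias were labelled as marrow and precursors as pro-B and pre-B cells, so stage and cell source cannot be told apart here.

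The difference between Pax5 genotypes was also compared between stages, as the leukaemia difference minus the precursor difference. Of 43 members 0 passed (0.692% of all genes did), and the median was -0.52. Before adjustment 3 had a limma p under 0.05, and the share of all genes at that limit was not computed. The smallest adjusted p values were 0.181 for Cdc25b (-1.60 ± 0.53), 0.204 for Cenpa (-0.64 ± 0.22) and 0.25 for Cdc20 (-0.87 ± 0.33, SE from limma). Without both-copy leukaemia array 2 Cdc25b and Cenpa passed as lower, and without heterozygous precursor array 3 Cdc20 did.

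Cdc25b and Cenpa departed from the other members. Cdc25b encodes a phosphatase that activates Cdk1 at the centrosome before mitosis. It ran from 8.54 to 9.97 with a median of 8.73 in heterozygous leukaemias and was 11.41 and 9.21 in both-copy leukaemias, against 10.67, 10.73, 10.42, 10.57 and 10.74 in B220+ cells and 11.12, 11.20, 11.42 and 11.29 in wild-type precursors. All 7 heterozygous leukaemias lay below every non-leukaemic array, and the 2 both-copy leukaemias fell on opposite sides of the B220+ cells. The change in heterozygous leukaemias was -1.62 ± 0.33 against B220+ cells (SE, adjusted p = 0.00252) and -2.26 ± 0.29 against wild-type precursors (SE, adjusted p = 8.1e-06). The highest heterozygous leukaemia was array 6, which also had the highest erythroid mean, and the part of erythroid cells was not tested. Cdc25a, the phosphatase of the same family that acts at S phase entry and is not among the 43, was higher in heterozygous leukaemias than in B220+ cells (0.96 ± 0.14, SE, adjusted p = 0.000255).

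Cenpa varied little. It ran from 10.07 to 10.66 with a median of 10.26 in heterozygous leukaemias and was 11.04 and 10.47 in both-copy leukaemias, against 10.52, 10.42, 10.36, 10.24 and 10.58 in B220+ cells. Both leukaemia groups overlapped the B220+ cells, and neither passed (-0.13 ± 0.12 and 0.33 ± 0.17, SE, adjusted p = 0.408 and 0.167). Against wild-type precursors, at 10.84 to 10.996, it was lower in heterozygous leukaemias (-0.64 ± 0.12, SE, adjusted p = 0.000482) and in B220+ cells (-0.51 ± 0.13, SE, adjusted p = 0.0149). Its promoter window, printed above, holds 2 CCAAT matches and 1 match of each core.

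**Figure D5:**
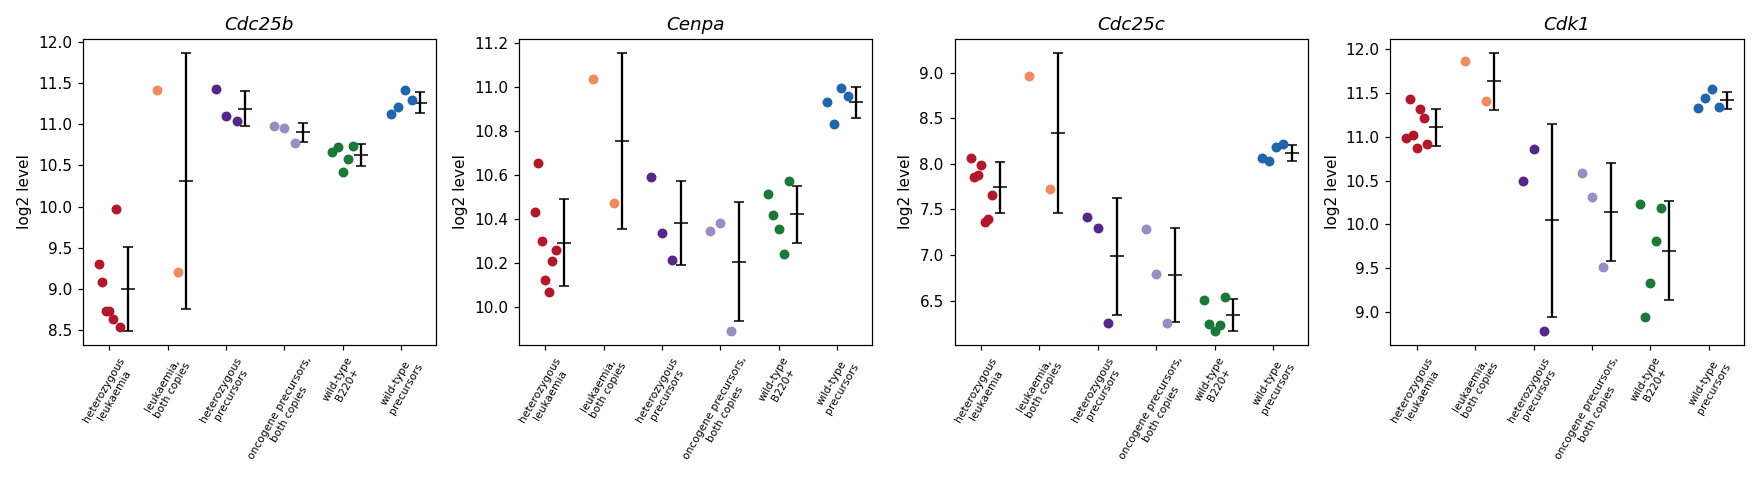
Log2 level of Cdc25b and Cenpa beside members that followed the common pattern, with 1 point per array and groups on the horizontal axis. Cdc25b is at 8.54 to 9.97 in heterozygous leukaemias and at 10.42 to 10.74 in B220+ cells. Cenpa overlaps between both leukaemia groups and B220+ cells, while Cdc25c and Cdk1 are higher in the leukaemias than in B220+ cells.

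Other cell cycle lists were set beside the members. Over all genes, 31.8% were called in heterozygous leukaemias against B220+ cells, 12.9% higher and 18.9% lower. In B220+ cells against wild-type precursors 4.26% of all genes were lower. Of 29 further mitotic kinases and regulators that were measured, 27 were higher in heterozygous leukaemias than in B220+ cells, with a median change of 0.99, and 27 were lower in B220+ cells than in wild-type precursors (median -1.62). Bora, which helps Aurora A activate Plk1, had a change of 1.74 ± 0.13, and Mastl, the Greatwall kinase that restrains a mitotic phosphatase, 1.91 ± 0.17 in heterozygous leukaemias against B220+ cells (SE, adjusted p = 2e-06 and 7.19e-06). Of 15 inner kinetochore genes measured 12 were higher, with the widest change for Cenpk at 1.69 ± 0.19 (SE, adjusted p = 4e-05) and the smallest adjusted p for Cenpi (1.52 ± 0.15, SE, adjusted p = 1.1e-05). Of 17 outer kinetochore and checkpoint genes measured 12 were higher, and Zwilch of the checkpoint complex RZZ had both the widest change and the smallest adjusted p (1.86 ± 0.17, SE, adjusted p = 7.09e-06). Of 18 genes of the anaphase-promoting complex, its E2 enzymes and its regulators, 5 were higher and 2 lower, with a median of 0.17. The shares over all genes were 12.9% and 18.9%. The 5 were Ube2c, an E2 enzyme, and the subunits Anapc1, Anapc5, Anapc11 and Anapc15. Of 15 further cohesin and condensin genes measured, 8 were higher and 1 lower, with a median of 0.26.

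Genes of DNA replication, which act in S phase, also differed between the groups, by smaller changes. Of 37 measured, 26 were higher in heterozygous leukaemias than in B220+ cells (median 0.73) and 31 in both-copy leukaemias (median 1.27). Over all genes 12.9% and 9.48% were higher in these comparisons. In B220+ cells 30 were lower than in wild-type precursors (median -0.90), with 4.26% of all genes lower. Mcm3, a subunit of the replicative helicase, changed by 1.00 ± 0.11 in heterozygous leukaemias against B220+ cells (SE, adjusted p = 3.39e-05). In both-copy precursors 24 of the 37 were lower than in wild type (median -0.70), with 15.5% of all genes lower. In heterozygous precursors 1 was lower (median -0.56), with 2.94% of all genes lower, so that count was near the share of all genes. Genes of cell cycle arrest and quiescence went the other way in heterozygous leukaemias against B220+ cells. Of 14 measured 1 was higher and 6 lower (median -0.84), against 12.9% and 18.9% of all genes. Klf2 changed by -2.52 ± 0.17 and Btg1 by -1.77 ± 0.16 (SE, adjusted p = 7.36e-07 and 5.78e-06). Against wild-type precursors 9 of the 14 were lower in heterozygous leukaemias (median -0.92), with 19.6% of all genes lower. There the mitosis genes had a median change of -0.49, so both lists went the same way. Klf2 is also a gene of resting mature B cells, whose markers were lower in 7 of 9 in heterozygous leukaemias than in B220+ cells. The part of mature B cells in the lower arrest genes was not tested. Of 18 genes of the MuvB and DREAM complexes and their E2F partners, 5 were higher and 5 lower in heterozygous leukaemias than in B220+ cells (median -0.016). Over all genes 12.9% were higher and 18.9% lower. Tfdp1, the E2F dimerisation partner, changed by 1.24 ± 0.14 and Lin37, a MuvB subunit, by -0.72 ± 0.05 (SE, adjusted p = 3.47e-05 and 1.58e-06).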

How the data were processed

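Trizol-extracted total RNA was fragmented, labelled with biotin and hybridised, 1 Affymetrix array for each of 24 mouse samples, per the labels' protocols. The deposited values are log2 expression per probe set, made by the authors with RMA and oligo, as the submitters' processing notes list them. Tool versions were not given in the sources used here, and neither was whether the arrays were normalized together. By construction, RMA equalises the probe distributions of arrays that are normalized together, so levels are relative within an array. Comparisons across the leukaemia and precursor sets assume comparable values.

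Of 35556 probe sets, 21789 had 1 symbol, 1621 several and 12146 none, and only the first were used (19938 genes, the probe set of highest mean for each). Symbols were updated and promoter windows taken from RefSeq (GRCm38.p6); 36 of 44 listed genes had a window. Groups came from the titles and were compared with limma 3.58.1 in R 4.3.3 (lmFit and eBayes, two-sided, Benjamini-Hochberg over all 19938 genes, threshold 0.05). The 14 arrays of leukaemias and B220+ cells and the 10 precursor arrays were fitted apart, and comparisons across them on all 24. Changes are log2 ± SE of that fit, and an SE or adjusted p in the text without another name is limma's. No gene was left out as dim. The members, gene lists, marker lists and tests were chosen with earlier results of these data known. Full values are given for up to 3 members of each role with the smallest adjusted p in heterozygous leukaemias against B220+ cells or in B220+ cells against wild-type precursors, and for members called where 5 or fewer were. Others named with values, such as Anln, Cenpk and Cdc25a, were chosen after their values were seen. The fits were also run on simulated data, with independent normal noise for each gene and 1 spread for all groups of a fit. The members moved together and their spread differed between groups, so that simulation does not cover the member counts.

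Same-numbered heterozygous and both-copy precursors deviated together from their group means, with correlations over all genes from 0.208 to 0.25. Differently numbered arrays of those 2 groups had -0.346 to 0.13. The replicate number was therefore treated as a possible pairing of them. No label gives a common litter or day, so the pairing rests on these correlations. Differently numbered both-copy and wild-type precursors reached 0.441, so values of this size do not establish a pairing. Alternatives were 3 scalings, array weights, a spread that follows intensity, the mean of a gene's probe sets, a filter on dim genes, the replicate block, other samples in the fit, leaving out each array, and leaving out 2 leukaemia arrays with high erythroid markers.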

Additional observations from a re-analysis of the deposited data

Results flagged for a closer look

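In groups of 4 to 10 arrays, the gap between the highest or lowest array and its nearest neighbour was compared with Dixon's 95% limit for 129 combinations of member and group, and 2 exceeded it. Both were the highest value of the same array of the 7 heterozygous leukaemias. Ttk was 8.551 on heterozygous leukaemia array 2, against 7.851 to 8.133 on the others. Ect2 was 10.53 on that array, against 9.985 to 10.21 on the others. Chance alone flags about 1 in 20 such groups, more than were found. That array was also the highest of its group for 27 of 43 members.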

How the results depend on the processing

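Single members were followed under the alternatives only where the main fit had called them. Of these 3932 recomputed values, 3437 kept their direction and the call, 495 kept their direction and lost the call, and 0 reversed. Members not called are outside this count, and some of them changed sign. Between heterozygous and both-copy precursors 31 members were above 0 as deposited and 13 with cyclic loess. The calls in heterozygous and both-copy leukaemias against B220+ cells and in B220+ cells against wild-type precursors moved by less than 1.5 times under all alternatives, except that 1 member was lower in both-copy leukaemias against B220+ cells without the 2 arrays with high erythroid markers or without both-copy leukaemia array 1, against 0 with all arrays. Leaving out the 2 arrays was chosen after seeing the data. That also gave 6 higher and 1 lower in both-copy leukaemias against both-copy precursors (33 and 0 with all arrays) and 1 lower in both-copy leukaemias against wild-type precursors (0). The other counts depended on the processing, and the cause was not tested. The share of all genes called under each alternative is not given here, so these counts do not compare the members with other genes. For heterozygous precursors against wild type, where 3 members were lower, the count was 0 with quantile scaling, 1 with cyclic loess, 24 with array weights, 6 with a spread that follows intensity, 8 with the dim filter and 10 in a fit of all 24 arrays. For both-copy precursors against wild type (25 lower) it was 11 with quantile scaling, 8 with cyclic loess and 38 with array weights. Array weights gave 4 higher in heterozygous leukaemias against their precursors (17) and 1 in both-copy leukaemias against theirs (33), and a fit of those 2 groups alone gave 2 there. Against wild-type precursors, heterozygous leukaemias had 5 lower with cyclic loess and 35 in a fit of the 2 groups alone (12), and both-copy leukaemias had 2 lower in such a fit (0). A fit of all 24 arrays gave 1 lower between the leukaemias (0).

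Leaving out 1 array gave 39 to 41 higher and 1 lower in heterozygous leukaemias against B220+ cells, 34 to 42 higher and 0 to 1 lower in both-copy leukaemias against them, and 41 to 42 lower in B220+ cells against wild-type precursors. It gave 0 to 13 lower between the leukaemias, 0 to 2 in heterozygous and 5 to 34 in both-copy precursors against wild type. Leukaemias against their own precursors ranged from 0 to 27 higher and 1 to 2 lower in the heterozygous, and from 6 to 36 higher and 0 to 1 lower in the both-copy comparison. Against wild-type precursors, 4 to 12 were lower in heterozygous and 0 to 1 in both-copy leukaemias, and 0 to 2 passed as lower in the difference between stages.

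With the replicate number as a block, 1 member was lower in heterozygous precursors against wild type (3 without it), where the numbers do not pair the arrays: same-numbered correlations ran from -0.131 to 0.0376. The block left 38 and 39 higher in the leukaemias against B220+ cells, and all other counts moved by less than 1.5 times. Between heterozygous and both-copy precursors, where a possible pairing by number was inferred from these same data, 0 members passed with and without the block.

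Scaling moved the share of higher genes among all called genes. With cyclic loess it was 54.6% in heterozygous leukaemias against B220+ cells (40.5% as deposited), 58.6% in both-copy leukaemias against them (44.4%), 55.8% and 55.4% in the leukaemias against their own precursors (36.6% and 39.6%), 57.2% and 62.9% against wild-type precursors (39.3% and 43.7%) and 43.6% for the difference between stages (32.6%). With median centring it was 63.6% in B220+ cells against wild-type precursors (51.8%), 30.1% in both-copy precursors against wild type (42.9%) and 51.9% in both-copy leukaemias against their precursors (39.6%). Over these scalings the medians of the members kept their sign, other than between the 2 oncogene-bearing precursor groups.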
